A study of Mus musculus and Rattus norvegicus with 53 samples.

Results

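The genes described are 10 of the 24016 listed in the mouse counts: the TAM receptor kinases Mertk, Axl and Tyro3, their ligands Gas6 and Pros1, the bridging protein Mfge8, the engulfment receptors Megf10 and Lrp1, and the lipid exporters Abca1 and Abcg1. They were chosen by symbol, and all 10 were found. The libraries hold Schwann cells (SCs) sorted for tdTomato from sciatic nerves of male and female mice aged 6 to 8 weeks. In these mice the P0A-Cre transgene, active in the SC lineage, switches on tdTomato at the Rosa26 locus. All groups share this genotype, labelled tdTomato+, and sorting by tdTomato takes any cell in which the Cre was once active. In the first experiment, nerves of 3 mice were pooled per library, with 4 libraries each of the contralateral intact nerve, the distal stump and the bridge, the last 2 taken 6 days after a full cut. The second experiment holds 35 single-nerve libraries, with 5 of intact nerve, 3 of distal stump on day 1, on day 2 and on every second day up to day 10, and 3 of bridge on each even day from 4 to 10.

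After a nerve is cut, axons and myelin distal to the cut break down, and SCs and incoming macrophages clear the debris. Dying cells and myelin fragments expose phosphatidylserine, which the soluble ligands Gas6 and Pros1 link to TAM receptors and which Mfge8 links to integrins. Megf10, a relative of the Drosophila receptor Draper, and Lrp1, a large endocytic receptor that takes up myelin debris and lipoproteins, engulf cargo directly. Cells that have taken up myelin must dispose of its cholesterol: Abca1 loads it onto lipid-poor apolipoproteins, Abcg1 onto lipoprotein particles, and both genes are classical targets of the sterol-sensing liver X receptors (LXR).

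One promoter is printed, that of Abca1, because Abca1 gave the largest distal difference of the set and because LXR control of this gene runs through its promoter. RefSeq promoters, each of 300 bases from 250 before to 50 after the gene start on GRCm38.p6, were found for 8 of the 10 genes, and not for Megf10 or Abcg1. The LXR-type direct repeat was searched on both strands as 2 copies of GGTNA in the same direction, 5 bases of any kind apart. The window of Abca1 lies at chr4:53159846-53160145 on the minus strand, and the capitals mark the single match, which reads as the reverse complement of the searched letters.
Abca1: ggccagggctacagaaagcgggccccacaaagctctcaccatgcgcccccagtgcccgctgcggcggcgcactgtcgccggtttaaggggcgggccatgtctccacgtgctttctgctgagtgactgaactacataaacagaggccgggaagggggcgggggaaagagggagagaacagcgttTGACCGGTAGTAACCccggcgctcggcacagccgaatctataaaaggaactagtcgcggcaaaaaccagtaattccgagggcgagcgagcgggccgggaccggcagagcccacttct
The match spans 67 to 53 bases before the gene start. It was found in 236 of 32851 promoters (0.718%) and, of the 8 promoters examined, in that of Abca1. Of 3 other motifs, an E-box (CACGTG, in 7.15% of promoters) was found in that of Abca1, the TEAD type GGAATG (14.7%) in that of Axl and the AP-1 type TGANTCA (7.81%) in none of the 8. A match describes letters and does not show binding.

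The libraries held between 9240883 and 22617054 counts on genes. SC markers were present in every group (8 of 8 with counts), and their sum lay between 4940 and 11710 CPM (counts scaled to a common library size) in pooled intact, 1402 and 3278 in distal and 1261 and 2614 in bridge libraries. In single nerves their sum lay between 1328 and 4769 CPM in intact, 867 and 2948 in distal and 161 and 2868 in bridge libraries. The 16 macrophage markers also had counts in every group. They summed to between 265 and 6732 CPM in pooled intact, 11350 and 18680 in distal and 2891 and 9118 in bridge libraries. In single nerves the sums lay between 368 and 1460 CPM in intact, 2764 and 15810 in distal and 1236 and 15620 in bridge libraries. Fewer cells of a type and less RNA per cell cannot be told apart in such data. Distal day 4 replicate 1 and bridge day 4 replicate 1, labelled with the same mouse, were nearly identical: chi-square per degree of freedom between them was 3.9, against at least 46.15 for the other 1080 pairs of libraries and 1.12 to 1.3 between lanes of 1 library. Single-nerve calls of the 10 genes are therefore given with and without both. Intact replicates 0 and 1 and distal day 2 replicate 0 detected under 11000 genes. These 3 were also left out in turn as a set.

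Levels can be compared between genes per kilobase of exon (RPKM, here with CPM scaled by the edgeR library factors). In pooled intact libraries Gas6 had the highest median, 157 RPKM, followed by Mfge8 at 89.1, Axl at 72.0 and Pros1 at 57.9. These 4 overlapped with their neighbours in the order. Abcg1 followed at 32.9, Lrp1 at 12.02, Mertk at 8.82 and Abca1 at 5.94, and the lowest were Tyro3 at 2.29 and Megf10 at 1.37. The ranges of Pros1 and Abcg1 did not overlap, nor did those of Mertk and Abca1 or of Abca1 and Tyro3. In distal libraries Gas6 again led at 153 RPKM, and Abca1 reached 53.8, above Lrp1 at 21.5 with no overlap of the 2 ranges. In bridge libraries Axl led at 127 RPKM, Gas6 was at rank 4 with 52.3, Megf10 was at rank 6 with 12.8 and Mertk was last at 0.721. Axl was thus the most abundant TAM receptor in all 3 regions, and its range overlapped with that of neither other receptor.

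**Figure D1:**
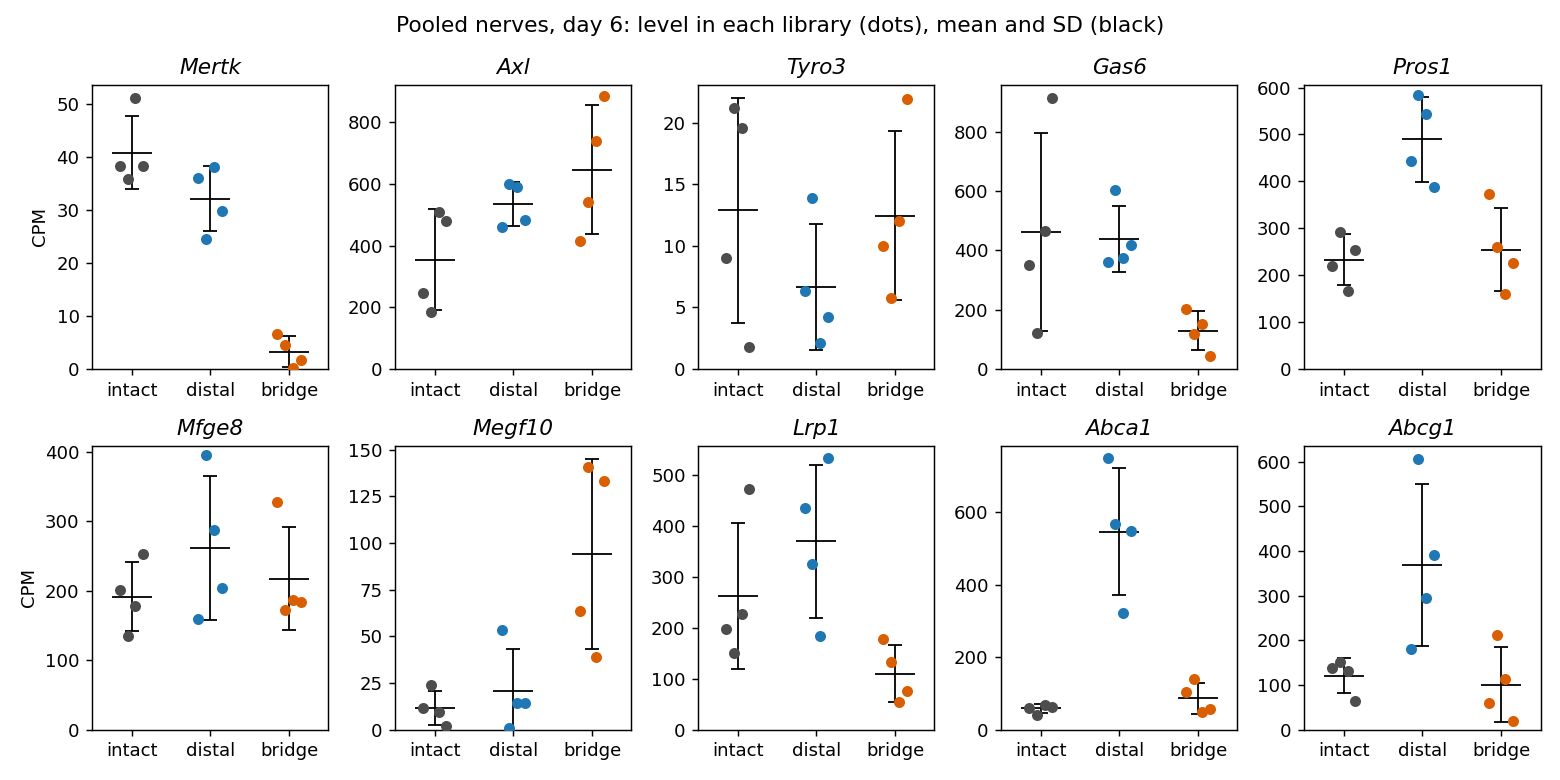
Level of each gene in each pooled library (CPM, linear axes from 0), with intact in grey, distal in blue and bridge in orange; each dot is 1 library and the black marks give the mean and SD of 4. Abca1 stands at 322 to 748 CPM in distal libraries and at 138.5 or less in all others, and Mertk at 6.59 CPM or less in bridge libraries.

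Abca1 was the gene of the set that rose most in the distal stump of pooled nerves. It had 59.8, 41.6, 69.4 and 63.2 CPM in the 4 intact libraries and 748.0, 567.0, 322.1 and 547.4 CPM in the distal libraries. Every distal library was above every intact one. The mean was 58.5 ± 11.96 CPM in intact and 546 ± 174 CPM in distal libraries (SD, n = 4 each), a 9.34-fold increase (log2 3.22 ± 0.38 SE, edgeR adjusted p = 6.1e-04). This call held without any 1 of the 8 libraries (adjusted p at most 0.00376) and with the pool number as a block (0.00421). The gene lies on chromosome 4 at 53043659 to 53172767 of mm9, on the minus strand.

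In the bridge at the same day Abca1 was near its intact level. The 4 bridge libraries had 103.0, 138.5, 47.6 and 57.0 CPM, a range that included most intact values, and the difference from intact was log2 0.57 ± 0.35 SE (adjusted p = 0.33). Bridge and distal libraries did not overlap, and Abca1 was 6.31-fold lower in the bridge (log2 -2.66 ± 0.37 SE, adjusted p = 0.00321, and 0.0239 with the pool block). Leaving out any 1 library kept this call (adjusted p at most 0.0112).

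Macrophage markers moved with Abca1 across regions, and their part in the result was not tested. At similar sums of these markers, the intact library with 6732 CPM had 63.2 CPM of Abca1 and the bridge library with 6582 CPM had 103 CPM. The bridge library with 9118 CPM of markers had 138.5 CPM of Abca1, and the distal library with 11350 CPM had 748. Among distal libraries the order was not the same, since the one with the most marker signal, 18680 CPM, had 567 CPM of Abca1.

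Abcg1, the second exporter, had 137, 152, 130 and 64.4 CPM in intact and 180, 606, 295 and 392 CPM in distal libraries. The groups did not overlap, but the distal libraries spread widely and the difference of log2 1.60 ± 0.58 SE missed the threshold (adjusted p = 0.15). Bridge libraries had 58.7, 212, 113 and 19.9 CPM, overlapping with both groups. The difference from distal was log2 -1.87 ± 0.58 SE (adjusted p = 0.078), and without bridge replicate 2, the highest, it passed (log2 -2.56, adjusted p = 0.034).

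Pros1, a TAM ligand better known as the anticoagulant protein S, was the other gene that rose in the distal stump. Its 4 intact libraries had 219, 293, 166 and 254 CPM and its distal libraries 444, 584, 542 and 387 CPM, with no overlap. The increase was 2.10-fold (log2 1.07 ± 0.28 SE, adjusted p = 0.042). The call was lost with the pool block (0.18), and without any 1 of the 8 libraries (0.053 to 0.15). In the bridge Pros1 had 160 to 372 CPM, the difference from intact was log2 0.13 ± 0.28 SE (adjusted p = 0.83), and every bridge library was below every distal one (log2 -0.94 ± 0.28 SE, adjusted p = 0.066, and 0.031 without bridge replicate 1).

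Of the 10 genes, 2 were therefore higher and 0 lower in distal than in intact libraries by edgeR (3 at an unadjusted p under 0.05, and the same count of 2 by DESeq2). Over all 13751 genes tested, 2.63% were higher and 2.69% lower. The median difference was log2 0.54 over the 10 genes and log2 -0.02 over all genes. Groups did not overlap for 3 of the 10 (Abca1, Pros1 and Abcg1, all higher), against 7.56% of all genes with distal libraries above intact ones and 9.41% below.

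Mertk, the TAM receptor that macrophages use to take up apoptotic cells, was lowest in the bridge of pooled nerves. It had 38.2, 35.8, 51.1 and 38.3 CPM in intact, 36.0, 24.6, 38.1 and 29.9 CPM in distal and 6.59, 4.53, 0.0858 and 1.72 CPM in bridge libraries. Intact and distal values overlapped (log2 -0.35 ± 0.74 SE, adjusted p = 0.91), and all 4 bridge values were below both. The mean in the bridge was 3.23 ± 2.89 CPM (SD, n = 4), 12.6-fold lower than in intact libraries (log2 -3.65 ± 0.82 SE, adjusted p = 0.0097). Against distal libraries it was 9.89-fold lower (log2 -3.31 ± 0.81 SE, adjusted p = 0.033). With the pool block the adjusted p was 0.058 against intact and 0.093 against distal. The first call held without any 1 of 8 libraries (adjusted p 0.0028 to 0.029), and the second only without bridge replicate 1 or 3 (0.016 at the lowest and 0.083 at the highest over the 8).

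The macrophage markers summed to 480, 264.8, 1648 and 6732 CPM in the intact libraries and 6582, 9118, 4500 and 2891 CPM in the bridge libraries, so that 1 intact library lay above 3 of the 4 bridge ones. Distal libraries, at 11350 to 18680 CPM, were all above the bridge. The part of these markers in the Mertk difference was not tested. Mertk lies on chromosome 2 at 128524692 to 128628630 of mm9.

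The other TAM receptors did not follow Mertk. Axl, which binds Gas6 with high affinity, had 184 to 509 CPM in intact, 461 to 600 CPM in distal and 414 to 886 CPM in bridge libraries. All 3 ranges overlapped, and the differences were log2 0.59 ± 0.34 SE for distal against intact (adjusted p = 0.45) and log2 0.86 ± 0.34 SE for bridge against intact (adjusted p = 0.11). Tyro3, the TAM receptor of neurons and glia, was low throughout, at 1.77 to 21.2 CPM in intact, 2.14 to 13.8 CPM in distal and 5.77 to 21.9 CPM in bridge libraries, and no comparison passed (adjusted p 0.63 to 0.98).

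Gas6 was lower in the bridge. Its intact libraries spread widely, at 350, 122, 465 and 915 CPM, whereas bridge libraries had 202, 119, 152 and 44.4 CPM and distal libraries 362, 603, 376 and 417 CPM. Bridge values overlapped with the lowest intact library but not with any distal one. The decrease from intact was log2 -1.84 ± 0.54 SE (adjusted p = 0.035), which was lost with the pool block (0.23). It held without intact replicate 2 or bridge replicate 1 and not without any of the 6 others (adjusted p 0.060 to 0.12, highest without intact replicate 5). Against distal libraries the difference was log2 -1.76 ± 0.53 SE (adjusted p = 0.071). Fibroblast markers, 8 genes, summed to between 8901 and 49650 CPM in intact, 29540 and 43080 in distal and 13440 and 27100 in bridge libraries, and their part in the Gas6 levels was not tested. Mfge8 had 135 to 254 CPM in intact, 160 to 396 CPM in distal and 172 to 328 CPM in bridge libraries, and its 3 comparisons gave adjusted p of 0.59 to 0.78.

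Megf10 was the gene of the set that rose in the bridge. It had 11.8, 23.9, 9.23 and 2.10 CPM in intact, 53.3, 1.08, 14.5 and 14.3 CPM in distal and 63.6, 141, 38.7 and 133 CPM in bridge libraries. All bridge values were above all intact ones, while 1 distal library reached into the bridge range. The increase over intact was 7.98-fold (log2 3.00 ± 0.94 SE, adjusted p = 0.047) and was lost with the pool block (0.16). It held without intact replicate 2 or bridge replicate 3 and not without any of the 6 others (adjusted p 0.054 to 0.12). Against distal it was log2 2.18 ± 0.91 SE (adjusted p = 0.18).

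Lrp1 was lower in the bridge than in the distal stump. Its distal libraries had 436, 326, 185 and 533 CPM and its bridge libraries 178, 132, 54.6 and 75.4 CPM, so the highest bridge value lay just under the lowest distal one. The difference was 3.36-fold (log2 -1.75 ± 0.46 SE, adjusted p = 0.042). It was lost with the pool block (0.068), and held only without bridge replicate 1 or distal replicate 3 (adjusted p 0.030 to 0.11 over the 8 libraries). Intact libraries had 198, 151, 228 and 472 CPM, overlapping with both (bridge against intact, log2 -1.25 ± 0.45 SE, adjusted p = 0.079, and 0.049 without bridge replicate 1).

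Against intact libraries, 1 of the 10 genes was higher in the bridge and 2 were lower, beside 7.24% and 7.46% of all genes tested. With the pool block 0 of the 10 passed (4 at an unadjusted p under 0.05), as against 7.04% of all genes. Between bridge and distal libraries 0 of the 10 were higher by edgeR or DESeq2, and 3 were lower (Abca1, Mertk and Lrp1), beside 2.31% and 3.11% of all genes. DESeq2 counted 6 lower, adding Gas6, Pros1 and Abcg1. The shares of all genes are those of edgeR, and the share by DESeq2 is not given here. The median difference between bridge and intact was log2 0.04 over the 10 genes and log2 -0.16 over all genes. Between bridge and distal it was log2 -1.35 over the 10 genes and log2 -0.07 over all genes. Of the 10 genes, 5 had all bridge libraries below all distal ones (Abca1, Mertk, Lrp1, Gas6 and Pros1), against 8.62% of all genes. The 3 pooled comparisons share libraries with each other and are not independent.

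**Figure D2:**
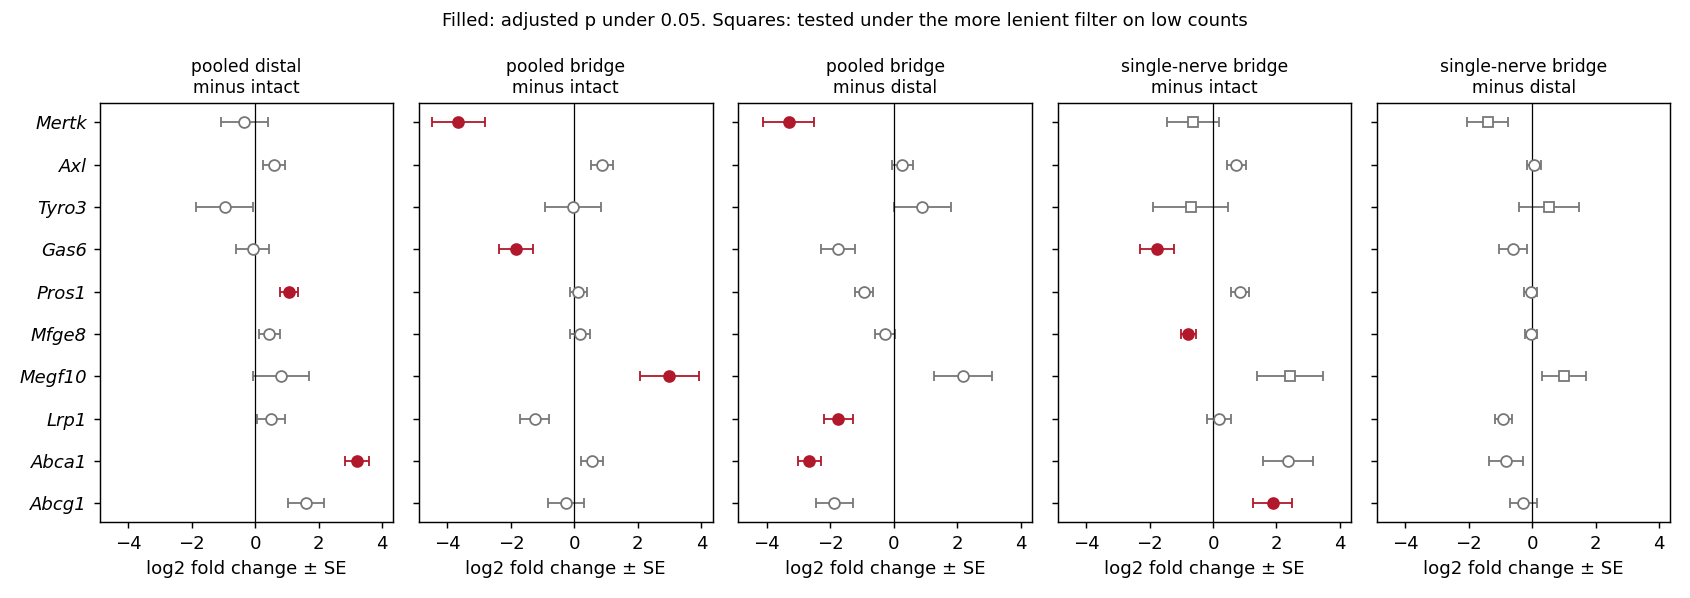
Log2 fold change (x axis, with SE bars) of each gene (rows) in 5 comparisons; filled red marks passed an adjusted p of 0.05 and squares mark genes tested under the more lenient count filter. Abca1 is at 3.22 in pooled distal against intact and at -2.66 in pooled bridge against distal, and Mertk is at -3.65 in pooled bridge against intact.

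Single nerves gave a time course in the distal stump. The count filter used by the study kept 7 of the 10 genes there. Mertk, Tyro3 and Megf10 did not reach it, and values of their tests come from the more lenient filter of edgeR, which kept all 10. Abca1 was high from day 4 on. It had a mean of 42.3 ± 49.4 CPM in intact nerves (SD, n = 5), 67.6 ± 38.7 at day 1, 111 ± 85.8 at day 2, 447 ± 95.1 at day 4, 432 ± 28.1 at day 6, 424 ± 72.8 at day 8 and 280 ± 146 at day 10 (n = 3 each). Intact libraries ranged from 0 to 123 CPM, days 1 and 2 from 12.2 to 163, and days 4 to 10 from 148 to 550. The 12 libraries of days 4 to 10 all lay above all 5 intact ones. The macrophage markers had a median sum of 505.9 CPM in intact nerves and 5079, 5018, 13060, 12460, 6809 and 7496 CPM at the 6 distal days in order. By these medians they were highest at days 4 and 6. Distal day 6 replicate 3 had 2764 CPM of markers, the lowest of all distal libraries, and 401 CPM of Abca1. Day 6 replicates 0 and 1 had 12460 and 14290 CPM of markers and 438 and 456.5 CPM of Abca1. The part of the markers in the Abca1 level was not tested. Intact replicate 0, with under 11000 genes, was the library at 0, where 3 counts would be at most 0.652 CPM in any library.

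At day 4 the increase of Abca1 was log2 3.39 ± 0.96 SE (adjusted p = 0.039, beside 4.48% of genes called at that day). Without the 2 near-identical libraries it was log2 3.24 (adjusted p = 0.097), and without the 3 libraries under 11000 genes log2 2.73 (0.018). The call was lost without any 1 of intact replicates 1, 4 and 5 or of the 3 distal libraries (adjusted p 0.059 to 0.11). At day 6 the difference was log2 3.35 ± 0.96 SE (adjusted p = 0.070), at day 8 log2 3.32 ± 0.96 (0.11) and at day 10 log2 2.72 ± 0.94 (0.25). The test over all 6 days gave an adjusted p of 0.15, or 0.031 without the 3 libraries under 11000 genes.

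Abcg1 had 51.2 ± 33.9 CPM in intact nerves, 150 ± 106 at day 1, 90.6 ± 73.1 at day 2 and 214 ± 66.3, 206 ± 16.05, 220 ± 51.6 and 282 ± 81.6 CPM at days 4, 6, 8 and 10. From day 4 on, no distal library overlapped with intact ones, but no day passed (adjusted p 0.11 to 0.24). Lrp1 had 168 ± 70.6 CPM in intact nerves and 463 ± 58.9 CPM at day 4, then 446 ± 68.7, 305 ± 38.9 and 264 ± 102 CPM at days 6, 8 and 10. Its difference at day 4 was log2 1.47 ± 0.49 SE (adjusted p = 0.078). Pros1 was highest last, with 303 ± 169 CPM in intact nerves, 705 ± 100 at day 8 and 782 ± 216 at day 10, where the difference was log2 1.37 ± 0.37 SE (adjusted p = 0.087). At day 6, the day of the pooled libraries, its distal values of 380, 311 and 422 CPM lay within the intact range of 138 to 535 CPM.

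Gas6 and Mfge8 lay at lower means in distal than in intact nerves. Gas6 had 741 ± 612 CPM in intact nerves, with replicates from 90.9 to 1410, and 208 to 472 CPM as the mean of each distal day, and no day passed. The lowest intact values were those of replicates 0 and 1, which detected under 11000 genes. Without these libraries intact nerves had 1167 ± 262 CPM (889 to 1410, n = 3), above every distal library (at most 662.6). Mfge8 had 516 ± 179 CPM in intact nerves, 456 ± 27.0 at day 1 and 225 ± 88.9 at day 2, a difference of log2 -1.20 ± 0.34 SE at day 2 (adjusted p = 0.073). Mertk means lay between 20.7 and 52.6 CPM over the 6 distal days, with 95.5 CPM in 1 day 4 library and 2.43 CPM in another, distal day 4 replicate 1 of the near-identical pair. Without that library the day 4 values were 59.7 and 95.5 CPM. Megf10 was at 0 counts in 2 of 3 libraries at day 1 and averaged 54.4 ± 41.02 CPM at day 6.

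In the test over all 6 distal days 0 of the 7 genes passed by edgeR (4 at an unadjusted p under 0.05), beside 1.99% of the 7171 genes tested. DESeq2 counted 2, Pros1 and Abca1, and its share over all genes is not given here.

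**Figure D3:**
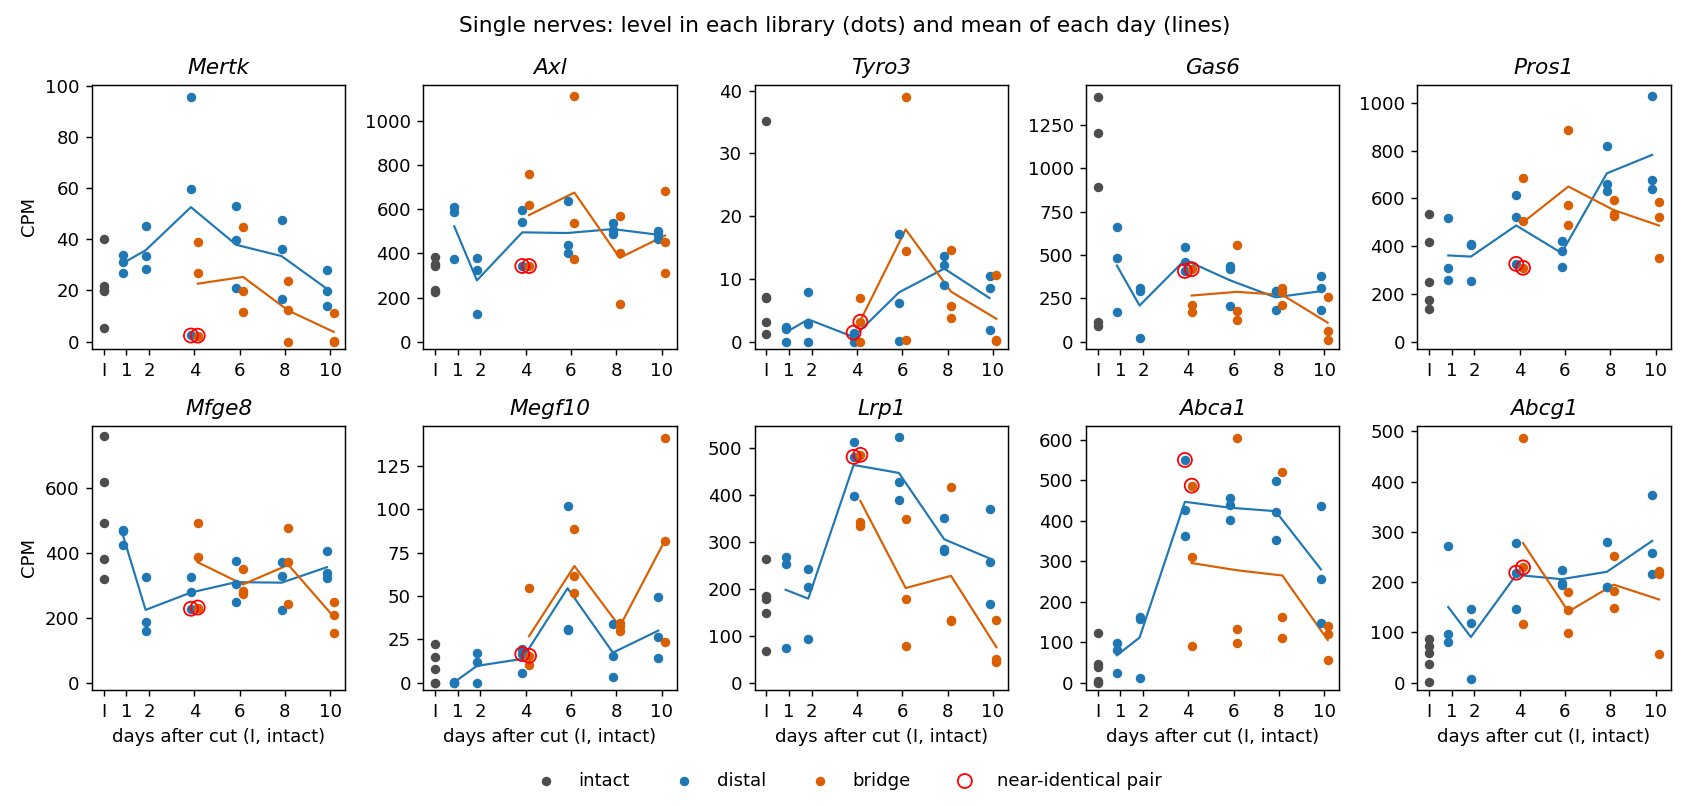
Level of each gene in single nerves (CPM, linear axes) against days after the cut, with intact nerves (grey) at I, distal stump in blue and bridge in orange; dots are libraries, lines join the means of each day and red circles mark the near-identical pair at day 4. Abca1 in distal libraries is at 163 CPM or less up to day 2 and at 148 to 550 CPM from day 4 on.

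In the single-nerve bridge, Gas6, Mfge8 and Abcg1 differed from intact nerves when the mean of the 4 days was tested. Gas6 was lower (log2 -1.76 ± 0.54 SE, adjusted p = 0.034), with 12.2, 209.8 and 559 CPM as the lowest, median and highest of 12 bridge libraries. The call was kept without the near-identical pair (0.036) and lost without 9 of the 17 single libraries (highest 0.11, without intact replicate 3). Mfge8 was lower by a small amount (log2 -0.77 ± 0.23 SE, adjusted p = 0.028), and its clearest day was day 10, at 153 to 249 CPM against 321 to 763 CPM in intact nerves, with no overlap (log2 -1.34 ± 0.34 SE, adjusted p = 0.031, beside 2.44% of genes called at that day). Without the near-identical pair the adjusted p over the 4 days was 0.065, and 10 of 17 left-out libraries ended the call (highest 0.16, without intact replicate 5). At day 10 the call was also lost without intact replicate 3, 4 or 5 or bridge replicate 0 or 3 (highest 0.19). Endothelial markers (8 genes) summed to 1802 to 4639 CPM in single intact nerves and 258 to 2927 CPM in bridge libraries, and mural markers (6 genes) to 1401 to 4534 and 574 to 2112 CPM; their part in the Mfge8 level was not tested.

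Abcg1 was higher (log2 1.88 ± 0.61 SE, adjusted p = 0.046), with 57.0, 182 and 486 CPM as the lowest, median and highest of the 12 bridge libraries against 0.411 to 87.2 CPM in intact nerves. The call was lost without the near-identical pair (0.064) and without 14 of 17 single libraries (highest 0.12, without intact replicate 0). Abca1 had 55.5, 136 and 604 CPM in the same order, overlapping with intact nerves (log2 2.36 ± 0.80 SE, adjusted p = 0.054, and 0.016 without intact replicate 3). Pros1 was at log2 0.84 ± 0.29 SE (adjusted p = 0.058, 0.047 without the near-identical pair and 0.016 without intact replicate 3). Of the 7 genes tested 1 was higher and 2 lower, beside 3.54% and 6.85% of all genes tested. Bridge libraries with the least macrophage signal, 1236 and 1820 CPM, had 99.1 and 57.0 CPM of Abcg1 and 131 and 55.5 CPM of Abca1.

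**Figure D4:**
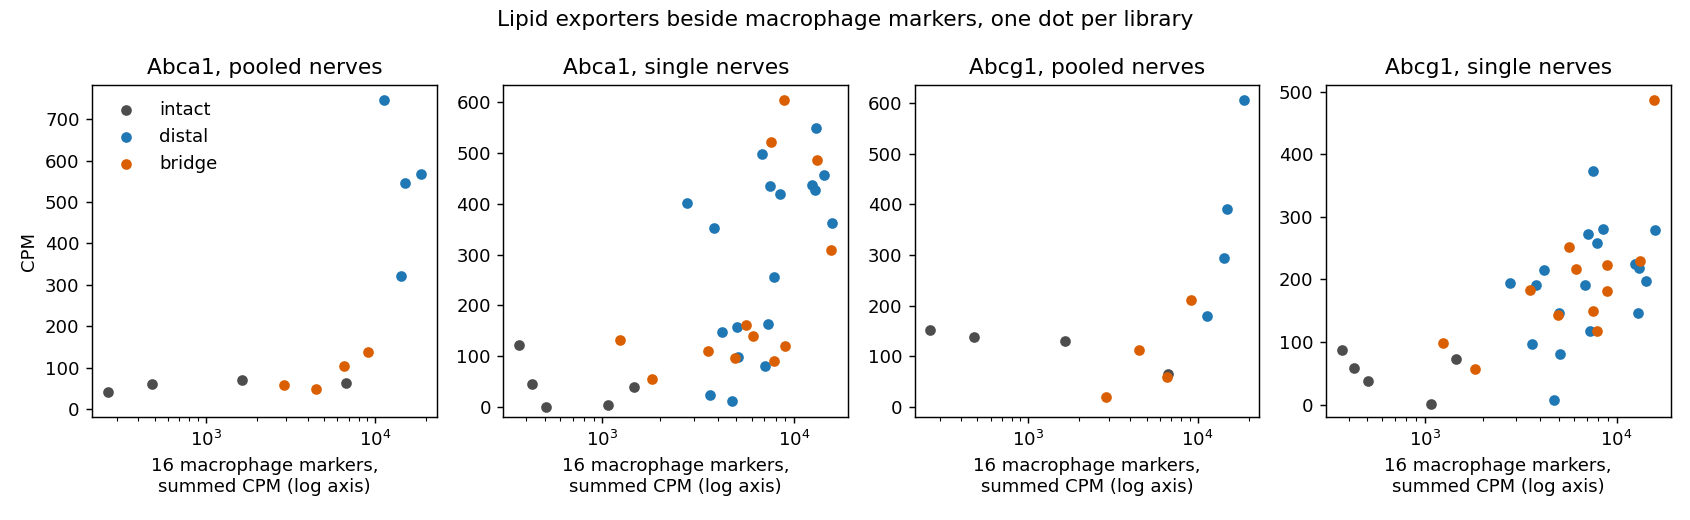
Abca1 and Abcg1 (CPM, linear axes) against the summed CPM of 16 macrophage markers (log axes) in each pooled or single-nerve library, with intact in grey, distal in blue and bridge in orange. In pooled nerves an intact library at 6732 CPM of markers has 63.2 CPM of Abca1, and the distal libraries, at 11350 CPM or more, have 322 CPM or more.

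Bridge and distal stump of the same nerve could be compared in 10 mice. Abca1 was lower in the bridge in 8 of the 10 and in 7 of 9 without the near-identical pair, with median differences of log2 -1.36 and -1.60. Lrp1 was lower in 8 of 10 and 8 of 9 (median log2 -0.77 and -0.95), and Mertk in 9 of 10 and 8 of 9 (median log2 -0.89 and -0.97). Megf10 was higher in 8 of 10 and 8 of 9 (median log2 0.87 and 0.92). Axl, Tyro3, Gas6, Pros1 and Mfge8 were each lower in the bridge in between 4 and 6 of the 10 mice, and Abcg1 in 7. Pros1 was lower in 6 and higher in 4, among them the mice of day 6 (log2 0.36, 1.51 and 0.44). In pooled nerves of that day every bridge library was below every distal one for Pros1.

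**Figure D5:**
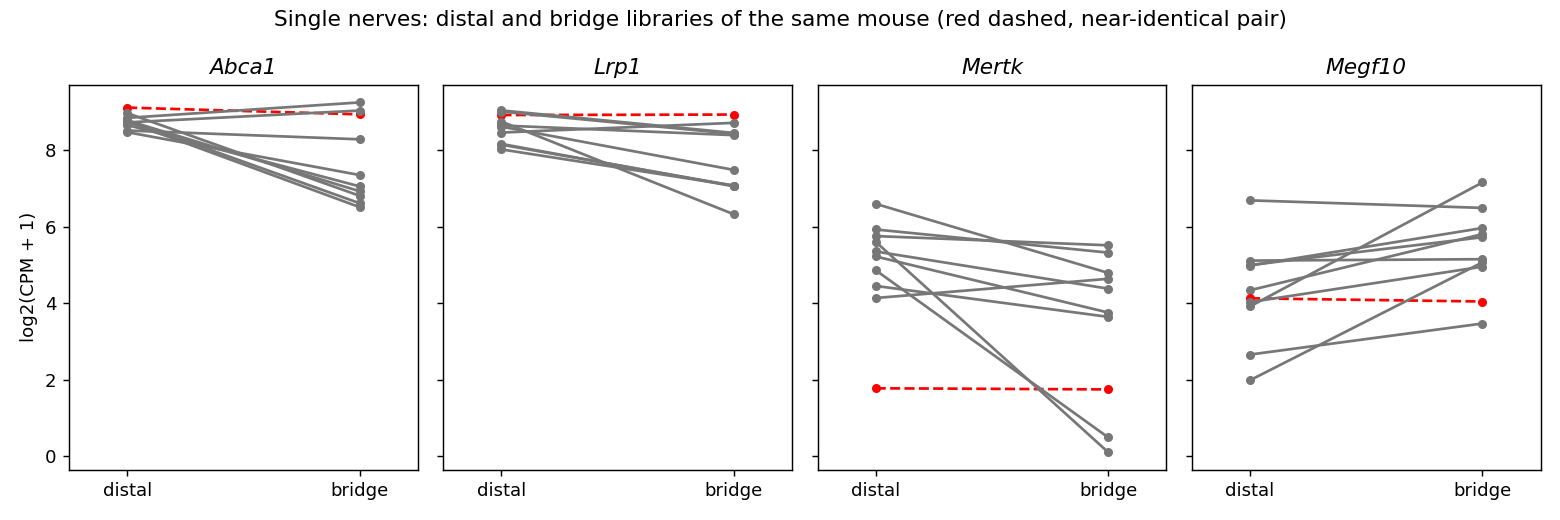
Distal and bridge levels of 4 genes in single nerves, as log2(CPM + 1), with each line joining the libraries of 1 mouse (10 mice) and the red dashed line the near-identical pair. Lines fall for Mertk in 9 of 10 mice and rise for Megf10 in 8 of 10.

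These pairs did not all carry through to tests. Averaged over days 4 to 10 and without pairing, 0 of 7 genes passed by edgeR or DESeq2 (1 at an unadjusted p under 0.05 by each), beside 0.112% of 7171 genes. The nearest was Lrp1, with log2 -0.91 ± 0.28 SE (adjusted p = 0.28). With each mouse as a block, over the 20 paired libraries, Megf10 was higher in the bridge (log2 1.53, adjusted p = 0.043, and 0.046 without the near-identical pair), beside 0.656% of 7779 genes called higher. With the more lenient filter as well, its adjusted p was 0.062, and over the same 20 libraries without the block it was 0.11. The blocked fit weighs the 4 days equally, and day 10 holds only 1 paired mouse. That mouse had the largest Megf10 difference of the pairs (log2 3.235). Single libraries were not left out in turn in this fit. In the blocked fit Lrp1 was at log2 -0.80 (adjusted p = 0.072) and Abca1 at log2 -1.20 (0.078). The difference between bridge and distal stump did not pass as depending on the day for any of the 7 genes (0 at an unadjusted p under 0.05, 0 by DESeq2), as for 0 of all 7171 genes.

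Mertk was lowest in late bridge libraries. It had 39.0, 2.36 and 26.7 CPM at day 4, the second from the near-identical pair, 19.8, 44.6 and 11.5 CPM at day 6, 12.5, 0.0792 and 23.9 CPM at day 8, and 0, 11.1 and 0.411 CPM at day 10. At day 6, the day of the pooled libraries, its single-nerve bridge values of 11.5 to 44.6 CPM all lay above the pooled bridge values of 0.0858 to 6.59 CPM, which come from another experiment. Intact single nerves had 5.25 to 40.0 CPM of Mertk (mean 21.5 ± 12.4, SD, n = 5), overlapping with the bridge libraries. The bridge mean at day 6 was 25.3 ± 17.2 CPM (SD, n = 3), so the pooled decrease from intact was not seen there. Over the 4 days the difference from distal was log2 -1.41 ± 0.65 SE under the lenient filter (adjusted p = 0.50).

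The genes whose pattern was most like that of each of the 7 were taken by Pearson correlation of log2 CPM over all 35 single-nerve libraries, which share depth and nerve region. For Abca1 these were Mpeg1 (r = 0.89), Fyb (0.89) and Cybb (0.89), all genes of macrophages and other myeloid cells. For Abcg1 they included Sirpa (0.94) and Ptpn1 (0.91). For Gas6 they were the complement gene C1ra (0.81), Aldh2 (0.81) and the complement gene C3 (0.79). For Pros1 they were Colec12, Pdia4 and Rab3gap2 (0.78 each), and for Lrp1 Igfbp5 (0.79), Tgfbi (0.78) and Atf3 (0.76). For Axl they were Eif2ak3 (0.78), Rcn1 (0.75) and Kansl1 (0.73), and for Mfge8 Cd34 (0.71), Ehd2 (0.69) and Ptrf (0.69).

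Other genes of sterol efflux and LXR signalling moved in the same comparisons. For each of the pathway genes below, the adjusted p with the pool block is added where the block ended its call. Of 20 listed, 19 were tested in pooled nerves, and 5 were higher and 1 lower in distal than in intact libraries (median log2 0.34), beside 2.63% and 2.69% of all genes. Macrophage markers moved with them (3 of 16 called higher, median log2 2.08), and their part was not tested. Soat1, which esterifies cholesterol for storage, rose from 34.7 ± 4.79 to 185 ± 18.5 CPM (log2 2.42 ± 0.24 SE, adjusted p = 4.4e-04). Pltp, a phospholipid transfer protein, rose from 161 ± 126 to 882 ± 248 CPM (log2 2.45 ± 0.50 SE, adjusted p = 0.014, block 0.10). Apod, an apolipoprotein of nerve, rose from 6241 ± 4544 to 47590 ± 13440 CPM (log2 2.93 ± 0.69 SE, adjusted p = 0.026, block 0.075). Srebf1, which drives lipid synthesis and is on the same list of sterol efflux and LXR genes, fell from 130 ± 26.4 to 55.9 ± 11.6 CPM (log2 -1.22 ± 0.27 SE, adjusted p = 0.022, block 0.13). Without any 1 library Soat1 kept its call 8 of 8 times, while Pltp lost it once, Srebf1 5 times and Apod 6 times.

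Between bridge and distal libraries 5 of the 19 were lower and 0 higher by edgeR (9 at an unadjusted p under 0.05, 8 called by DESeq2, median log2 -0.85), beside 3.11% and 2.31% of all genes. Apod had 611 ± 607 CPM in the bridge (log2 -6.28 ± 0.80 SE, adjusted p = 0.0021). Pltp had 183 ± 74.5 CPM (log2 -2.27 ± 0.50 SE, adjusted p = 0.021, block 0.092, and lost without 3 of the 8 libraries in turn). The lysosomal transporter Abca5 had 0.0831 ± 0.0974 CPM in the bridge and 15.1 ± 8.11 CPM in distal libraries (adjusted p = 0.0048).

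Against intact libraries 1 of the 19 was higher in the bridge and 5 were lower (median log2 -0.42), beside 7.24% and 7.46% of all genes. Soat1 was the higher one (log2 1.56 ± 0.23 SE, adjusted p = 8.4e-04). Among the lower ones were Abca5 (adjusted p = 7.3e-04), Apod (log2 -3.35 ± 0.70 SE, adjusted p = 0.0062, block 0.057) and Abcg4, a close relative of Abcg1 that had 5.85 ± 1.82 CPM in intact and 0 counts in all 4 bridge libraries (adjusted p = 0.015, block 0.095).

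In the single-nerve bridge 3 of 15 were higher than in intact nerves and 1 was lower (median log2 0.15, against -0.09 over all genes), beside 3.54% and 6.85% of all genes. Apoe, the main acceptor of exported cholesterol in nerve, rose (log2 1.72 ± 0.54 SE, adjusted p = 0.040, lost without 9 of 17 libraries in turn). Soat1 (log2 1.86 ± 0.45 SE, adjusted p = 0.0080) and Lipa, the lysosomal acid lipase (log2 1.30 ± 0.30 SE, adjusted p = 0.0064), also rose and kept their calls without any 1 library. Nr1h3, which encodes LXR alpha, fell (log2 -1.76 ± 0.46 SE, adjusted p = 0.014, lost without 2 of 17). Apoe was also the 1 gene of 15 that passed over the 6 distal days (adjusted p = 0.018). Macrophage markers were higher too. In bridge against intact nerves 10 of 14 were called higher (median log2 2.88), beside 3.54% of all genes. Over the distal days 4 of 14 were called higher (median log2 2.94), beside 1.05% of all genes. Their part in these differences was not tested.

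Of the family of lipoprotein receptors to which Lrp1 belongs, 12 genes were listed and 10 tested in pooled nerves (median log2 0.42 in distal against intact, -1.24 in bridge against intact and -1.82 in bridge against distal). Lrp4, a receptor for agrin, rose from 62.6 ± 13.8 to 261 ± 102 CPM in distal libraries (log2 2.06 ± 0.48 SE, adjusted p = 0.027, lost without 6 of 8 libraries in turn). Lrp4 and Sorl1 were lower in bridge than in distal libraries, and Sorl1 and the chaperone Lrpap1 (block 0.091) were lower in bridge than in intact libraries. Lrp4 lost this call without 4 of 8 libraries in turn and Lrpap1 without 8 of 8, while Sorl1 kept both of its calls. Sorl1, a sorting receptor, had 0 counts in the 4 bridge libraries and 29.5 ± 20.3 CPM in distal ones. In single nerves 6 of the family were tested, and 0 passed by edgeR or DESeq2 in the distal time course or in bridge against intact or distal nerves (0, 0 and 1 at an unadjusted p under 0.05). Of all 7171 genes, edgeR called 1.99% in the time course. It called 3.54% higher and 6.85% lower in bridge against intact nerves, and 0.112% in bridge against distal nerves.

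Of 14 other engulfment receptors, 11 were tested in pooled nerves. Between distal and intact libraries 0 passed by edgeR or DESeq2 (1 at an unadjusted p under 0.05, median log2 0.45), beside 2.63% of all genes higher and 2.69% lower. In the bridge 0 were higher and 1 lower than in intact libraries, beside 7.24% and 7.46% of all genes. Against distal libraries 1 was higher and 1 lower, beside 2.31% and 3.11% of all genes. Itgb5, an integrin chain that binds Mfge8, was lower in the bridge than in intact libraries (log2 -1.03 ± 0.29 SE, adjusted p = 0.029, block 0.14) and distal libraries (log2 -1.18 ± 0.29 SE, adjusted p = 0.032, block 0.057). The first call was lost without 5 of 8 libraries in turn and the second without 6 of 8. Scarb1, the receptor for high density lipoprotein, was higher in bridge than in distal libraries (log2 1.63 ± 0.38 SE, adjusted p = 0.028, block 0.086, lost without 3 of 8).

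Among 12 bridging and surface signals, 2 were higher in distal than in intact libraries (median log2 0.58), beside 2.63% of all genes. Thrombospondin 1 (Thbs1) was higher by log2 2.11 ± 0.55 SE (adjusted p = 0.041, block 0.18, lost without 7 of 8 libraries in turn) and calreticulin (Calr), an eat-me signal at the cell surface, by log2 1.26 ± 0.26 SE (adjusted p = 0.015). Calr was also higher in the single-nerve bridge than in intact nerves (log2 0.81 ± 0.21 SE, adjusted p = 0.012), as was Anxa5, which binds phosphatidylserine (log2 0.67 ± 0.22 SE, adjusted p = 0.042, lost without 12 of 17 libraries). In the pooled bridge 5 of the 12 were higher than in intact libraries and 2 lower, beside 7.24% and 7.46% of all genes. The higher ones were led by Cx3cl1 (log2 2.87, adjusted p = 0.012, block 0.12), the Mfge8 relative Edil3 (log2 2.41, adjusted p = 0.0012) and Anxa1 (log2 1.55, adjusted p = 0.0039). The complement genes C3 (log2 -5.51, adjusted p = 0.0049) and C4b (log2 -3.37, adjusted p = 1.3e-04) were lower. Between bridge and distal libraries, C3 (block 0.066) and C4b were again lower and Edil3 (block 0.097, lost without 5 of 8 libraries in turn) higher.

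Of 13 genes of the engulfment machinery, 1 was lower in distal than in intact libraries (median log2 -0.05), beside 2.69% of all genes. This was Gulp1, an adaptor that binds the tails of Megf10 and Lrp1 (log2 -2.10 ± 0.33 SE, adjusted p = 0.0026). In the bridge 2 were lower than in intact libraries (median log2 -0.36, beside 7.46% of all genes), Gulp1 (log2 -1.29 ± 0.32 SE, adjusted p = 0.016, block 0.060) and Elmo1 (log2 -1.30 ± 0.40 SE, adjusted p = 0.043, block 0.13). Gulp1 lost this call without 2 of 8 libraries in turn and Elmo1 without 8 of 8. The list gave 0 calls by edgeR between bridge and distal libraries (3 at an unadjusted p under 0.05, 1 by DESeq2), beside 2.31% of all genes higher and 3.11% lower.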

How the data were processed

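RNA-seq libraries of sorted mouse SCs were analysed (47 libraries, with 8 given as 2 lanes, which were summed). Per the labels and the study's methods, libraries were made with the Smart-seq2 protocol, reads were aligned by the authors with TopHat 2.0.11 to mm9 and counted per gene with HTSeq, and raw counts were deposited without normalization. The strand setting of the counting was not given in the sources used here. HTSeq's own categories and 92 ERCC spike-ins were left out. The HTSeq categories took between 55.7% and 64.9% of all rows' counts. Rat cultures were not used here.

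Groups came from the labels. Counts were tested in R 4.3.3 with edgeR 4.0.16 (TMM factors, quasi-likelihood test, Benjamini-Hochberg adjustment over all genes tested), in 1 fit per experiment. A gene was called at an adjusted p under 0.05. Shares over all genes are those of edgeR, also where a count by DESeq2 stands beside them. Genes passed the filter of edgeR in pooled nerves (13751 genes) and at least 100 counts in at least 85% of libraries in single nerves (7171 genes). CPM were scaled by TMM factors, and RPKM used exonic lengths of GENCODE M1. Pair differences used log2(CPM + 1). Alternatives were DESeq2 1.42.0, its size factors, other filters, covariates, the groups compared alone, blocks and each library left out. The fits were tested on simulated data. Some pathway genes are not reported here. The members and lists were chosen with earlier results of these data known. Named were all 10 genes, up to 3 called genes per list and direction in each comparison, and the 3 genes most alike in single nerves.

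Pooled libraries of the same number come from the same pool of mice and bridge and distal libraries of a single nerve from the same mouse, as the labels give. Deviations from the group means correlated at -0.01 on average for the same pool (10 pairs, -0.13 to 0.08) and at 0.16 for the same mouse (10 pairs, -0.29 to 0.66; 0.10 without the near-identical pair). Bridge day 10 replicates 0 and 2 were left out of the pairs, since the labels of the first name 2 mice and the second has no distal library.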

Additional observations from a re-analysis of the deposited data

Results flagged for a closer look

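In 4 of the 14 groups of mouse libraries, those with 4 or 5 libraries, the highest and lowest values of the 10 genes were compared with the range of their group (40 gene and group combinations), where chance would set apart about 1 in 20. Values that stood apart were 3. Mertk in pooled intact replicate 4 was at 51.1 CPM, against 35.8 to 38.3 CPM in the other 3 libraries. Mfge8 in pooled bridge replicate 1 was at 328 CPM, against 172 to 186 CPM in the others. Tyro3 in single-nerve intact replicate 0 was at 35.2 CPM, against 1.15 to 7.07 CPM in the others, and that library is 1 of the 3 with under 11000 genes.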

How the results depend on the processing

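The number of the 10 genes called in each comparison moved as follows. In pooled distal against intact it was 2, became 3 (with Abcg1) with only the groups compared and 1 with the pool block (replicate block), with a covariate for lanes and without any 1 library. In pooled bridge against intact it was 3, became 4 (with Lrp1) with DESeq2, 2 with only the groups compared, 2 (Mertk and Axl) with the lane covariate and 0 with the replicate block, and ranged from 1 to 3 without any 1 library. In pooled bridge against distal it was 3, became 6 with DESeq2, 2 (Gas6 and Abca1) with only the groups compared and 1 with the replicate block, and ranged from 1 to 4 without any 1 library. In the single-nerve distal time course it was 0, became 2 with DESeq2 and 1 without the 3 libraries under 11000 genes, and stayed at 0 without any 1 library. In single-nerve bridge against intact it was 3, became 5 with DESeq2, 4 with the edgeR filter, 2 (Pros1 and Abca1) with the covariate for the library name letter, 2 (Gas6 and Pros1) without the near-identical pair, 1 (Pros1) with both that filter and no such pair, and 0 with only the groups compared. With no filter it was again 3, with Abca1 in place of Mfge8, and it ranged from 0 to 3 without any 1 library. In single-nerve bridge against distal it was 0 and stayed at 0 without any 1 library. It became 1 (Megf10) with the replicate block for mice, with or without the near-identical pair, a fit that takes the paired libraries alone and tests Megf10, which the unblocked fit of all libraries did not. Over the same 20 libraries and 7779 genes without the block Megf10 was at an adjusted p of 0.11. The test of region by day gave 0 under all its alternatives. The cause of these moves was not tested, except that leaving out libraries lowers the sample size.

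Log2 fold changes of single genes called under any setting did not reverse: over alternatives other than left-out libraries, 116 kept their side of the threshold, 25 lost and 21 gained a call, and with 1 library left out 169 kept, 65 lost and 9 gained it. Abca1 in pooled distal against intact and in pooled bridge against distal passed under every alternative run, with adjusted p of at most 0.00421 and 0.0239. With only the groups compared, adjusted p rose to 0.079 for Gas6 in pooled bridge against intact, to 0.11 for Mertk and 0.054 for Lrp1 in pooled bridge against distal, and to 0.095 to 0.12 for the 3 genes called in single-nerve bridge against intact. With the lane covariate it was 0.052 for Pros1, 0.083 for Gas6 and 0.055 for Megf10. With a covariate for the library name letter it was 0.059 for Gas6, 0.082 for Mfge8 and 0.054 for Abcg1, and Mfge8 was also lost with no filter (0.12) or the edgeR filter (0.095). The pool and mouse blocks changed no other call of the 10 genes than those given. Alternatives for near-identical libraries, libraries under 11000 genes and combined filters were chosen after seeing the data. In single nerves some libraries held Mertk, Tyro3 or Megf10 at under 1 CPM, deep ones among them.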
